A study of Rattus norvegicus with 6 samples.

Results

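Interferon-induced genes and the regulators that act on them were examined in rat liver after hemorrhagic shock. The set comprised 9 genes: the type I interferon targets Usp18, Irf7, Mx1, Mx2, Oas1a and Ifit3, the transcription factors Irf1 and Stat2, and the receptor subunit Ifnar1. Each was looked up by RefSeq transcript, and 8 of the 9 had a row among the 7126 genes with a symbol on the array; Ifnar1 had no matched row and has no value here. Every measured member had a single row. The members were selected on the log2 difference between limited and aggressive resuscitation in these same arrays, so their differences between the regimens are given as a description, without a test.

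The animals were male Sprague-Dawley rats aged 90 to 120 days, bled without control by tail amputation, and infused from then on with Ringer's solution, a balanced salt fluid. Limited resuscitation held the mean arterial pressure at 50 to 60 mmHg, and aggressive resuscitation aimed at more than 80 mmHg. All rats of both regimens had therefore been bled and infused, and unbled animals were not analysed here. Livers were taken at 330 min, and those of 3 rats of each group of 6 were hybridised, 1 rat to an array, to 1-colour NimbleGen expression arrays.

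Type I interferons signal through IFNAR1 and IFNAR2 and the kinases JAK1 and TYK2. These phosphorylate STAT2, which acts with IRF9 at the interferon-stimulated response element in promoters of antiviral genes. Interferon gamma signals through its own receptor to the gamma-activated site. Irf1 is a textbook gene of the second kind and also responds to NF-kB. In liver, hepatocytes, Kupffer cells and endothelium all respond to interferons.

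The promoters of the members were read for both elements, since these are the sequences through which the pathways above reach the genes. RefSeq promoter windows of the rat assembly GRCr8, running from 250 bases before to 50 after an annotated start, were at hand for 6 of the 8 measured members and not for Usp18 and Mx2. The core of the response element was searched as GAAANNGAAA and the core of the gamma-activated site as TTCNNNGAA, both on either strand. The 250 bases before the start are shown 5′ to 3′ on the gene's strand for the 4 members with a match, and capitals mark the matches.
Irf7 (chr1:205800024-205800273, - strand): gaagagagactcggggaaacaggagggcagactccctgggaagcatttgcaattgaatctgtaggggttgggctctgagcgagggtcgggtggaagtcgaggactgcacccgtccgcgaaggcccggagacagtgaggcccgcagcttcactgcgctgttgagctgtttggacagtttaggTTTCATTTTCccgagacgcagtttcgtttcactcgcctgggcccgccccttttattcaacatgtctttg
Ifit3 (chr1:241527076-241527325, + strand): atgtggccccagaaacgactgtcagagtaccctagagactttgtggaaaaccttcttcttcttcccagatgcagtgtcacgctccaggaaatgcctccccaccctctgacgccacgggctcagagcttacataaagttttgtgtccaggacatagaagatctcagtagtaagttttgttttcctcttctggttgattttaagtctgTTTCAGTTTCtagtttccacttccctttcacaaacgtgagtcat
Oas1a (chr12:41330216-41330465, + strand): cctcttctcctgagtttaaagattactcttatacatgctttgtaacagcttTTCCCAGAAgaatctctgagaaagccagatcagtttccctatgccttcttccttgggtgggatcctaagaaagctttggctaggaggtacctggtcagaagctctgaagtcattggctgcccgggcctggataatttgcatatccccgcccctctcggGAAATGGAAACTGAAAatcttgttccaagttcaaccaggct
Irf1 (chr10:38417685-38417934, + strand): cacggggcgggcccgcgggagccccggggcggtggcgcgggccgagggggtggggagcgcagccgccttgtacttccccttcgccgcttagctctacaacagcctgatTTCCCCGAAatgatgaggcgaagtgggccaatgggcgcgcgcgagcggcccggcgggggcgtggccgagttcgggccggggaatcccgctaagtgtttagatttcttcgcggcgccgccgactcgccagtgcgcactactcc

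Irf7 and Ifit3 each held 1 response element core, and Oas1a held 2 that overlap. They began 69 bases before the start in Irf7, 44 before it in Ifit3, and 41 and 35 before it in Oas1a. Irf1 held no response element core and 1 gamma-activated site core, which began 142 bases before its start. Oas1a held a gamma-activated site core as well, 199 bases before the start. The windows of Mx1 and Stat2 matched neither pattern, which says only that these letters are not in these windows. For Irf7, Mx1 and Stat2 the annotated gene extends upstream of the start used by the table, so other transcripts have other windows. Of all 33469 RefSeq promoter windows, 3.92% held the response element core and 8.87% the gamma-activated site core. A match is a description of letters, not a bound site.

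**Figure D1:**
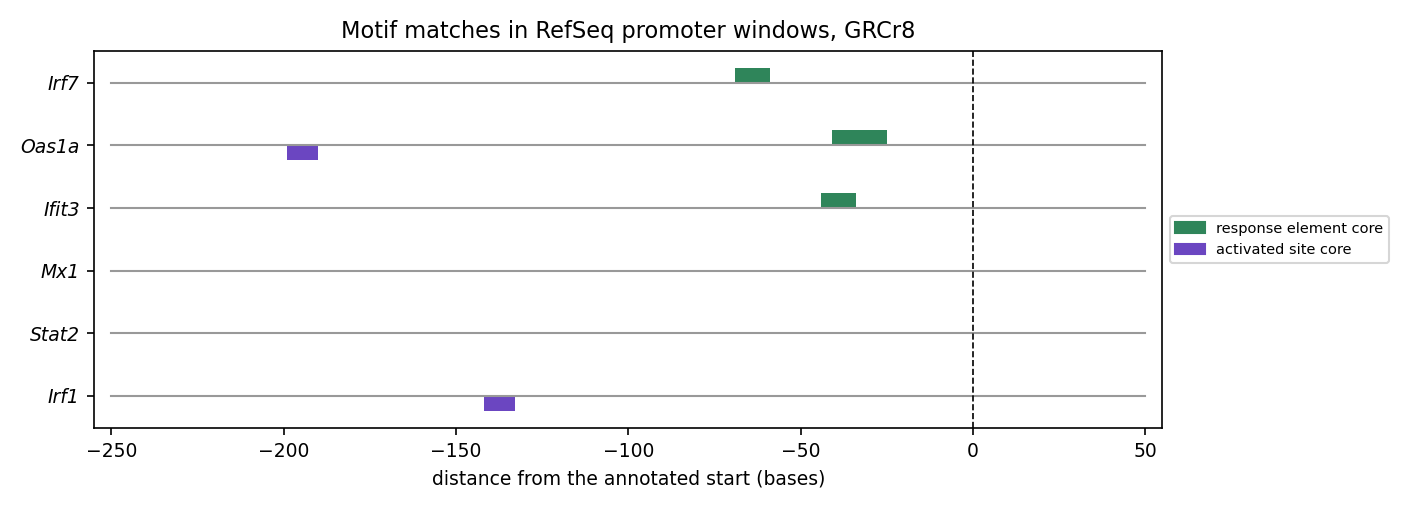
Positions of motif matches in the promoter windows of 6 members, in bases from the annotated start at 0 (dashed line). Green bars are response element cores and purple bars gamma-activated site cores; Irf7, Ifit3 and Oas1a have green bars within 69 bases of the start, Irf1 has a purple bar only, and the 2 overlapping matches of Oas1a are drawn as 1 bar.

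The same search was made in other targets with a row on the array. Of 25 further measured type I targets with a promoter window, 16 (64.0%) held it and 3 held the gamma-activated site core. Of 22 further measured targets of interferon gamma and Irf1 with a window, 14 (63.6%) held the response element core and 7 (31.8%) the gamma-activated site core. The lists are of known targets and were written with earlier results of these data at hand. Among the type I targets, 10 of the 16 with the response element core were lower under limited resuscitation (median log2 difference -0.09), as were 7 of the 9 without it (median -0.40). Among the targets of interferon gamma and Irf1 the medians stood the other way round, with 11 of 14 lower with the core (median -0.22) and 5 of 8 without it (median -0.10).

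Between the regimens, 7 of the 8 measured members were higher under aggressive resuscitation and 1, Irf1, was higher under limited resuscitation. In 7 of the 8 the groups' arrays were fully separate, as in 19.8% of all 19345 rows (10.0% higher and 9.76% lower under limited resuscitation); because this contrast chose the members, nothing is read from that count. The median log2 difference, limited minus aggressive, was -0.38 over the 8 members and 0.01 over all rows. Values below are RMA intensities on a linear scale, as deposited. A level of one gene is not set against that of another, since each row has its own probes.

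Usp18 encodes the protease that removes the ubiquitin-like modifier ISG15 from proteins and that damps signalling at IFNAR2. Its intensity was 1370.2, 1752 and 1437 in limited arrays 1 to 3, and 2873, 3369 and 3312 in aggressive arrays 1 to 3. All 3 aggressive values lay above all 3 limited ones, with means of 1519.7 ± 204 (SD, n = 3) and 3185 ± 272 (SD, n = 3). The log2 difference was -1.07 (SE 0.191), the largest in size among the 8 members.

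Irf7, the transcription factor that amplifies type I interferon production and is itself induced by it, had intensities of 2237, 2247 and 2124 in the limited arrays and 4475, 3634 and 4349.9 in the aggressive arrays. The limited arrays lay close together and well below the aggressive ones. The log2 difference was -0.91 (SE 0.180), and the means were 2203 ± 68.3 (SD, n = 3) and 4153 ± 454 (SD, n = 3).

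Mx1 and Mx2 encode dynamin-like GTPases that block virus replication, in the rat a nuclear and a cytoplasmic protein. Mx2 was at 1022, 795 and 1170.4 in the limited arrays and at 2247, 1522 and 1493 in the aggressive arrays. The groups did not overlap, and aggressive array 1 stood above the other two of its group. Mx1 was at 192, 173 and 269 against 244, 231 and 295. Here the groups did overlap: limited array 3 lay above aggressive arrays 1 and 2. The log2 difference was -0.81 (SE 0.249) for Mx2 and -0.30 (SE 0.232) for Mx1, whose intensity was close to the array medians of 212 to 245. With each array left out in turn, the difference of Mx1 ran from -0.49 to -0.17. The 2 genes are related in sequence, and no probe sequences were used here, so hybridisation of one transcript to probes of the other was not tested.

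Oas1a, an oligoadenylate synthetase that activates RNase L on double-stranded RNA, was at 858, 643 and 760.1 in the limited and 925, 943 and 1039 in the aggressive arrays. The groups were separate by a small margin, between limited array 1 and aggressive array 1. Ifit3, an adaptor of the IFIT proteins that bind viral RNA, was at 568, 523 and 506 against 696, 617 and 602. Both genes were higher in every aggressive array than in any limited array, with log2 differences of -0.37 (SE 0.191) for Oas1a and -0.26 (SE 0.175) for Ifit3. Oas1a belongs to a family of close copies, so the limit named for Mx1 and Mx2 holds for it too.

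Stat2, the type I interferon signal transducer that acts with IRF9, was at 1771, 1459 and 1757 in the limited arrays and at 2418, 1996 and 2083 in the aggressive arrays. The groups did not overlap, and the log2 difference was -0.38 (SE 0.189).

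Irf1, a transcription factor for antigen presentation, chemokine and nitric oxide genes, went the other way. Its intensity was 5141, 4176 and 5723 in the limited arrays and 2871, 2412 and 2739.7 in the aggressive arrays. Every limited array lay above every aggressive one, with means of 5013 ± 781 (SD, n = 3) and 2674 ± 237 (SD, n = 3) and a log2 difference of 0.90 (SE 0.200).

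**Figure D2:**
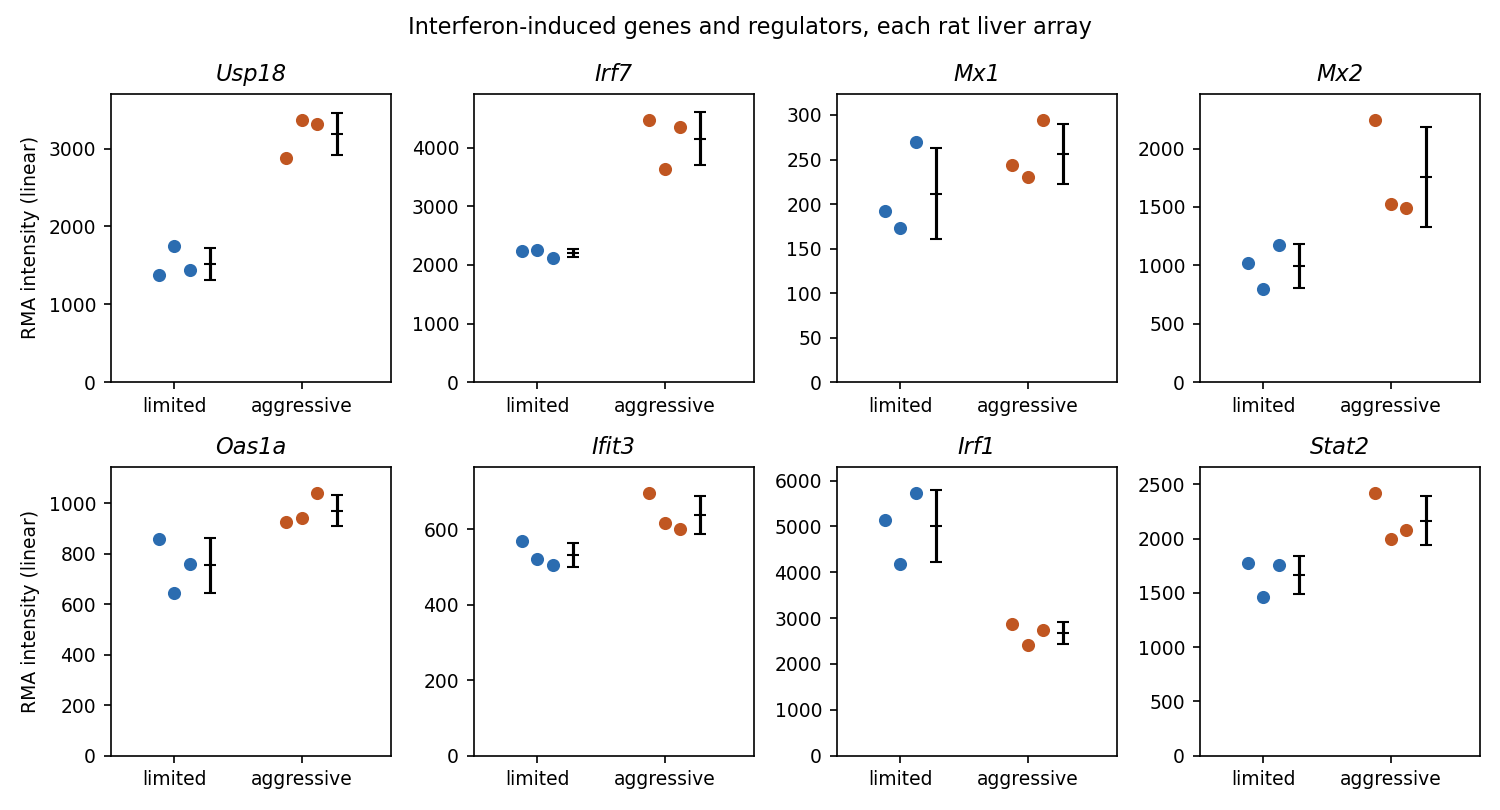
RMA intensity (linear axes from 0) of the 8 measured members in the 3 limited (blue) and 3 aggressive (orange) arrays; black marks give the mean and SD of each group. Irf1 is higher in the limited arrays, the other 7 have higher means in the aggressive arrays, and only in Mx1 do the groups overlap.

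Irf1 was then set against the 6 type I targets array by array, with each gene first centred on its own mean log2 over the 6 arrays. The mean of the targets was -0.29, -0.41 and -0.23 in limited arrays 1 to 3 and 0.37, 0.23 and 0.34 in aggressive arrays 1 to 3. Irf1 was at 0.50, 0.20 and 0.65 in the limited and at -0.34, -0.59 and -0.41 in the aggressive arrays. Irf1 minus the targets was thus 0.76 ± 0.144 (SD, n = 3) in the limited and -0.76 ± 0.0554 (SD, n = 3) in the aggressive arrays. The difference of 1.52 on the log2 scale describes the choice of the members and is not a test. Leaving out each array in turn gave 1.45 to 1.60.

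Inside each group, which the choice of members did not use, the order of the arrays was the same for Irf1 and for the mean of the targets. Limited array 3 was highest and limited array 2 lowest in both, and aggressive array 1 was highest and aggressive array 2 lowest in both. The array medians over all rows did not run in that order, at 239, 243 and 226 in the limited and 212, 235 and 245 in the aggressive arrays. Summed markers of lung, described below, did so in the limited arrays, at 645, 543 and 764. In the aggressive arrays, at 5098, 1787 and 7052, they were lowest in array 2 but highest in array 3. Summed macrophage markers ran in that order in the aggressive arrays, at 34427, 29309 and 30655, but not in the limited ones, at 43962, 48051 and 50988. A link was not tested. With 3 arrays per group these orders are a description. Single genes departed from the order of Irf1 and the mean of the targets. Limited array 2 was the lowest of its group for 5 of the 8 members (Mx1, Mx2, Oas1a, Irf1 and Stat2) but the highest for Usp18 and Irf7. Aggressive array 1 was the highest of its group for 5 members (Irf7, Mx2, Ifit3, Irf1 and Stat2) and the lowest for Usp18 and Oas1a, and aggressive array 2 was the highest for Usp18 alone.

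**Figure D3:**
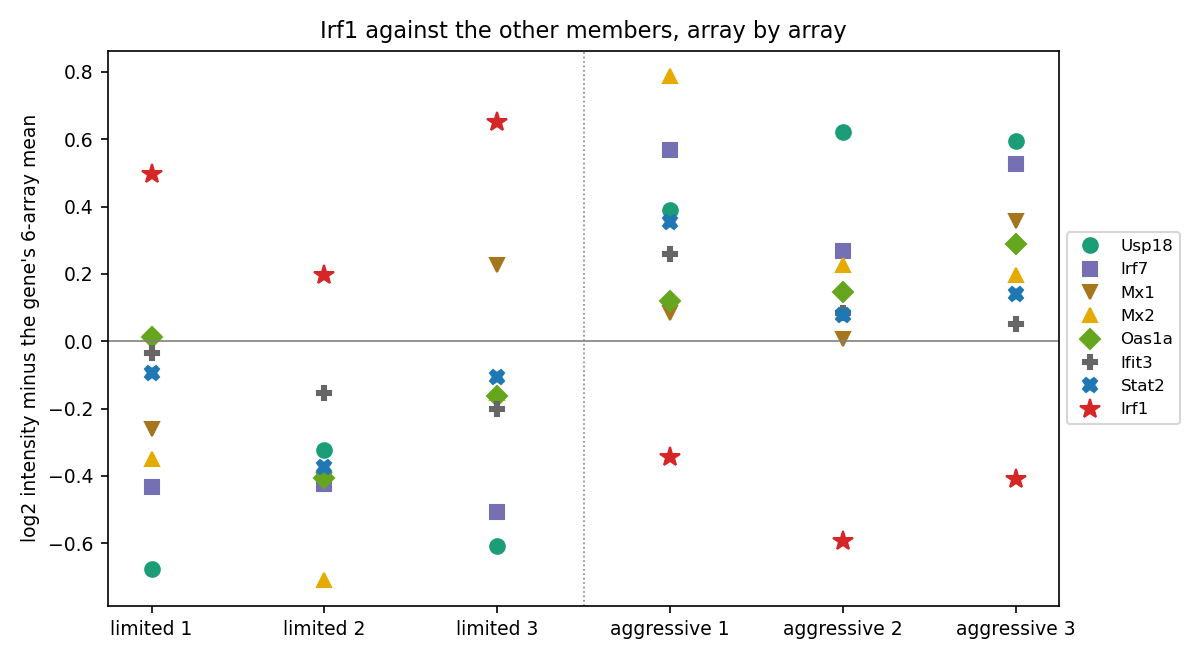
Log2 intensity of each member minus that gene's own mean over the 6 arrays, by array. Irf1 (red stars) is between 0.20 and 0.65 in the limited and between -0.59 and -0.34 in the aggressive arrays, and the other members, apart from Mx1 in limited array 3 and Oas1a in limited array 1, are below 0 in the limited and above 0 in the aggressive arrays.

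Summed markers of macrophages and of lung were separate between the groups, and those of 5 other non-hepatocyte lists overlapped. Of 12 Kupffer cell and macrophage markers 9 were measured, all of them higher in the limited arrays, and their summed intensity was 43962 to 50988 in the limited and 29309 to 34427 in the aggressive arrays. All 10 lung markers, surfactant proteins among them, were higher under aggressive resuscitation, with a summed intensity of 543 to 764 in the limited arrays and of 5098, 1787 and 7052 in aggressive arrays 1 to 3. The 9 measured of 12 T and NK cell markers summed to 1925 to 2102 against 1780.2 to 2118, and the 3 measured of 9 dendritic cell markers to 1617 to 2326 against 1405 to 1749. The 6 measured of 9 neutrophil markers summed to 39949 to 44799 against 44379 to 46770.3, the 2 of 6 endothelial markers to 868 to 959.9 against 595 to 1061, and the 3 of 4 red blood cell markers to 27605 to 34354 against 28255 to 33961. In each of these 5 lists markers went both ways. Higher under limited resuscitation were 3 T and NK cell, 2 dendritic cell, 3 neutrophil, 1 endothelial and 1 red blood cell markers. Lower were 6, 1, 3, 1 and 2 in the same order. A sum gives most weight to bright markers. All 10 hepatocyte markers were measured, with sums of 310655 to 352425 over the 6 arrays, so the markers of the labelled tissue were present. No marker was at 0 in any array. The part of these cells in the values of the interferon genes was not tested, and in whole tissue fewer cells of a type and less RNA per cell cannot be told apart. Against aggressive array 2 alone, the aggressive array with the lowest lung sum, the log2 difference was -1.16 for Usp18, -0.72 for Irf7, -0.63 for Mx2, -0.33 for Oas1a, -0.27 for Stat2, -0.21 for Ifit3 and -0.15 for Mx1, and 1.04 for Irf1. These values rest on 1 aggressive rat and on the contrast that chose the members. The lung sum of that array, 1787, still lay above the highest limited sum of 764, so the lung signal is not removed from these values. The difference of Irf7 moved from -0.91 with all arrays to -0.72, by more than its replicate SD of 0.12.

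The rest of the pathway was followed in 158 further genes, sorted by role, of which 80 had a matched row. The match left 12122 rows without a symbol, so a gene without a matched row may still be on the array. Each row of the array was tested with limma's moderated test, adjusted by Benjamini-Hochberg over all 19345 rows. At an adjusted p under 0.05, 0.114% of all rows passed (0.0414% higher and 0.0724% lower under limited resuscitation), and 1 of the 80 genes did, Cxcl10, which was higher under limited resuscitation. At an unadjusted p under 0.05 there were 8 higher and 9 lower genes, 21.2% of the 80, where 13.1% of all rows reached it (6.86% higher and 6.19% lower). The lists were written with earlier results of these data known, so their shares are a description. With an intensity trend and robust prior, which passed 2.95% of all rows (1.56% higher and 1.39% lower), 5 of the 80 passed: Cxcl10, Il18 and Cd74 were higher and Nos2 and Cxcl9 lower under limited resuscitation. Cd74, the invariant chain of MHC class II, is named after its values were seen.

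Among the interferon ligands and the cytokines that induce interferon gamma, 3 of 16 had a matched row, and neither Ifnb1 nor Ifng was among them. Il18, which drives interferon gamma release by lymphocytes, was at 281, 349.6 and 517 in the limited and at 140.4, 175.5 and 140.03 in the aggressive arrays. The groups did not overlap, with a log2 difference of 1.29 (adjusted p = 0.146, limma) that passed with an intensity trend and robust prior (adjusted p = 0.00602, limma). Il15, a growth factor of NK cells, differed by 0.52, and Il27, a cytokine of antigen-presenting cells, by -0.17; both were dim and their groups overlapped.

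Of the receptors and the transducers between receptor and nucleus, 5 of 11 had a matched row. Ifnar2, Jak1 and Tyk2 had no matched row. None of the 5 passed limma's adjusted test, where 0.114% of all rows did. Likewise 0 reached an unadjusted p under 0.05 (13.1% of all rows), and 0 passed with the intensity trend and robust prior (2.95% of all rows). With so few genes, nothing is read from these counts. All 5 log2 differences lay below 0, as did 9440 of all 19345 rows, and Irf9 changed sign without limited array 1 (0.0020). Irf9, the DNA-binding partner of STAT2, differed by -0.11 (adjusted p = 0.861, limma) and the kinase Jak2 by -0.22 (adjusted p = 0.712, limma).

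Among negative regulators 7 of 14 had a row, and 0 passed limma's adjusted test (0.114% of all rows). In limma 0 reached an unadjusted p under 0.05 (13.1% of all rows) or passed with the intensity trend and robust prior (2.95% of all rows). Nothing is read from these counts either. Socs1, an inhibitor of the JAK kinases, was at 240.3, 172 and 97.1 in the limited and at 120.3, 108 and 82.5 in the aggressive arrays, which overlapped (log2 difference 0.63, adjusted p = 0.495, limma). Ptpn6, the phosphatase SHP-1, differed by 0.44, the phosphatase Ptpn11 by -0.33 and Irf2, a repressor that competes with Irf1, by -0.12. Isg15, the modifier that Usp18 removes, had no matched row.

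Of the genes that sense nucleic acids or endotoxin and switch interferons on, 9 of 24 had a row, and 8 of the 9 differences lay above 0 (median 0.25), as did 9905 of all 19345 rows. None passed limma's adjusted test, 2 (22.2%) were higher at an unadjusted p under 0.05, where 6.86% of all rows were, and 0 passed with the intensity trend and robust prior. These 2 were Tlr4, the endotoxin receptor, at 0.78 (adjusted p = 0.337, limma) and Irf8, a factor of macrophages and dendritic cells that is also among the dendritic cell markers above, at 0.54 (adjusted p = 0.376, limma). Tlr4 was dim, at 65.2 to 95.5 under limited and 31.5 to 60.4 under aggressive resuscitation. Irf3, the factor that starts interferon transcription, differed by 0.26 with overlapping groups.

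Further type I targets numbered 33 with a row of 60 listed. None passed limma's adjusted test or the test with an intensity trend and robust prior, while at an unadjusted p under 0.05 there were 4 lower and 1 higher under limited resuscitation, 15.2% of the list against 13.1% of all rows. In 10 of the 33 (30.3%) the groups did not overlap, 8 of them lower, where 19.8% of all rows did not overlap. The median log2 difference was -0.11, with 21 below and 12 above 0, where 9440 of all 19345 rows lay below 0. This median moved to -0.17 without aggressive array 2, to -0.039 without aggressive array 3 and to -0.029 against aggressive array 2 alone. Phf11, a regulator of cytokine transcription, had a difference of -0.58 (adjusted p = 0.258, limma). Its intensity was 864, 862 and 764 in the limited against 1319.96, 1255 and 1143 in the aggressive arrays. Ube2l6, the conjugating enzyme for ISG15, differed by -0.58 (adjusted p = 0.309, limma) and the antibody receptor Trim21 by -0.57 (adjusted p = 0.319, limma). Their groups did not overlap either, at 713 to 769 against 905 to 1315 for Ube2l6 and at 228 to 240.4 against 284 to 416 for Trim21. Against aggressive array 2 alone, the differences were -0.30 for Ube2l6, -0.27 for Trim21 and -0.60 for Phf11.

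Targets of interferon gamma and Irf1 lay on both sides of 0. Of 38 listed, 26 had a row, and 18 of the 26 differences lay below 0 (median -0.20), as did 9440 of all 19345 rows. At an unadjusted p under 0.05 there were 4 higher and 5 lower genes, 34.6% of the list against 13.1% of all rows. Because the list was written with earlier results of these data known, nothing is read from that share. The chemokine Cxcl10, at 4115 to 5732 in the limited and 1051 to 1349 in the aggressive arrays, differed by 1.99 (adjusted p = 0.0446, limma), whereas the chemokine Cxcl9 differed by -1.27 (adjusted p = 0.0901, limma) and Nos2, the inducible nitric oxide synthase, by -1.67 (adjusted p = 0.0691, limma). The call of Cxcl10 was lost when any 1 array was left out (adjusted p = 0.113 to 0.213, limma), with the difference then between 1.87 and 2.13.

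**Figure D4:**
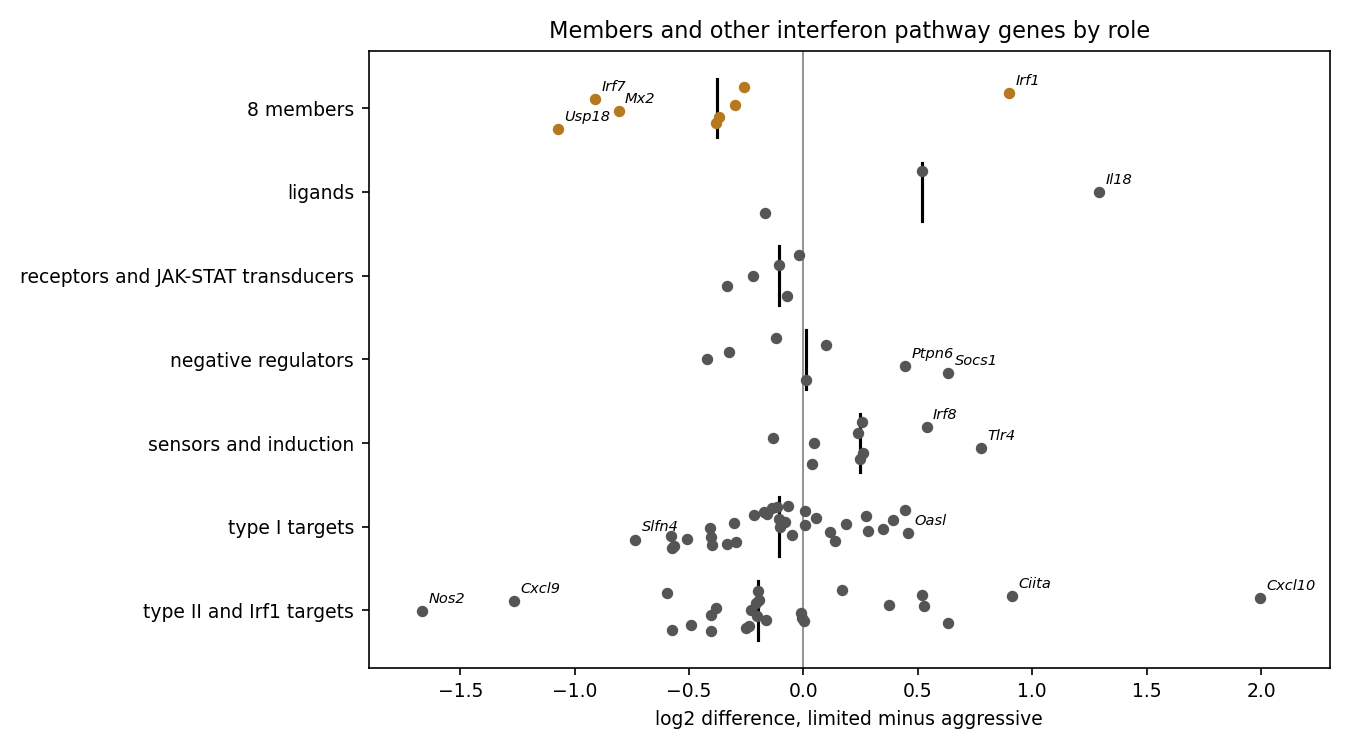
Log2 difference, limited minus aggressive, of the 8 members (gold) and of 80 other pathway genes (grey) by role; each point is 1 gene, a gene on 2 lists is drawn in both, and vertical bars are medians. The type I targets have a median of -0.11, the gene points reach from -1.67 (Nos2) to 1.99 (Cxcl10), and Irf1 at 0.90 stands apart from the other 7 members.

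Genes whose profile over the 6 arrays lay nearest to that of Usp18 and of Irf1 were looked up among 7122 genes by the root mean square distance between gene-centred log2 values. Nearest to Usp18 were Cygb, a globin of stellate cells, at 0.12, the homeobox gene Irx5 at 0.12 and Hcar2, the niacin receptor, at 0.13. Irx5 was dim, at 50.4 to 120 over the arrays. Nearest to Irf1 were Pcolce, an enhancer of procollagen processing, at 0.11, the transcription factor Twist1 at 0.12 and C1qb, a complement chain made by macrophages, at 0.13. C1qb was at 2871 to 3817 in the limited and 1558 to 2091 in the aggressive arrays and is one of the macrophage markers above. No gene of the pathway lists, with 80 measured, was among these 6. The distance includes the difference between the regimens, by which Usp18 and Irf1 were chosen. The neighbours shared that difference, at -0.95 to -0.86 for those of Usp18 and 0.77 to 0.82 for those of Irf1. Nothing is therefore read from which genes were nearest.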

How the data were processed

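In the deposited table each of 19345 RefSeq transcripts has 1 intensity per array. Per the submitters' processing notes the authors made these intensities with RMA (background correction, normalisation between arrays, probe summary). The version and any filter were not stated in the labels. Per the labels' protocols RNA was labelled with Cy3; the label fields name both Trizol and an RNeasy kit. The 3 arrays per group limit the precision; signal over background is unknown, which limits dim genes. No pair of arrays was identical.

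Accessions without versions were matched to RefSeq symbols of GRCr8, which named 7223 rows (7126 symbols) and left 12122 without a symbol. Where a gene had several rows, that with the highest mean was kept. Groups came from the labels. Log2 values were fitted with lmFit and eBayes of limma 3.58.1 (R 4.3.3), with 4 residual and 3.26 prior degrees of freedom and a two-sided test, adjusted by Benjamini-Hochberg over all rows with a threshold of 0.05. The code was tested on simulated data. The p-values set each difference against the spread between the arrays of these rats, moderated by a prior from all rows.

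Members and lists were chosen with earlier results of these data known. Genes were named by rule: the members, pathway genes that passed, the 3 smallest p of each list, 12 fixed genes, and the 3 nearest profiles of Usp18 and Irf1. One pathway gene is not reported here by name. Alternatives are in the closing section.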

Additional observations from a re-analysis of the deposited data

How the results depend on the processing

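The difference between Irf1 and the type I targets, 1.52, stayed between 1.45 and 1.60 under every alternative run, and all 8 members kept their direction there. The median over the members, -0.38, was -0.46 to -0.28 with each array left out in turn. The 22 rows that passed over the whole array became 483 without dim rows, 570 under an intensity trend with robust prior, 0 with the replicate number as a block, 0 to 2 without any 1 array, and 0 without aggressive arrays 1 and 3. The 1 pathway gene that passed became 4, 5, 0, 0 and 0 in the same order. Runs with fewer arrays or with the block have fewer degrees of freedom. Whether the lower counts come from that or from single arrays was not tested, nor was the cause of the higher counts. The replicate block gave Cxcl10 an adjusted p of 0.291 (limma). The numbers are not shown to pair the rats, since deviations of same-numbered arrays correlated at -0.06, -0.05 and 0.05. The median of the further type I targets, -0.11, was -0.17 to -0.039 without any 1 array and -0.029 without aggressive arrays 1 and 3. Small differences that did not pass changed sign: Il27 ran from -0.68 to 0.72, Irf9 from -0.21 to 0.0020 and Irf2 from -0.22 to 0.00063 with each array left out in turn, and without aggressive arrays 1 and 3 Il27 was 0.86 and Irf9 0.014. Searching only the bases before the start left the members with a match at 3 for the response element and 2 for the gamma-activated site. Only 1 aggressive array remains without arrays 1 and 3, and it is assumed to vary like the limited ones. Nothing can be said of Ifnar1, the member that had no matched row. The unknown signal over background limits what can be said of dim genes.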
